A study of Homo sapiens with 6 samples.

Results

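The BCL2 family sets whether a cell survives or enters mitochondrial apoptosis, and 10 of its genes were examined in MV4;11, an established human line of acute myeloid leukaemia that carries MLL-AF4. They are the pro-survival genes BCL2, BCL2L1 (BCL-XL), MCL1 and BCL2A1 (BFL-1), the BH3-only genes BCL2L11 (BIM), PMAIP1 (NOXA), BMF, BIK and BID, and the pore-forming effector BAX. The members were chosen by symbol, with earlier results of these data known, as genes with a probe set annotated to that symbol alone. All 10 were measured, among 19775 genes in all. They carry 31 of the 54675 probe sets of the Affymetrix Human U133 Plus 2.0 array. Each gene is represented by its brightest probe set by the mean of all 6 arrays, called its main probe set. The cells were held for 3 h with the solvent DMSO (3 arrays) or with 25 nM CA (3 arrays), named cortistatin A in the series title, a steroidal alkaloid that inhibits the Mediator kinases CDK8 and CDK19. Both groups are the same line in the same medium, and the dose and the time were the only ones studied. Nothing in the labels ties the 3 wells of a group to separate cultures, and the p-values may therefore rest on technical spread alone.

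Pro-survival proteins hold the effectors BAX and BAK1 in check at the outer membrane of the mitochondrion. BH3-only proteins bind the pro-survival proteins through a short helix and release or activate the effectors, which then open the membrane to cytochrome c. BIM binds all pro-survival members, whereas NOXA binds mainly MCL1 and BFL-1. Several BH3-only genes and MCL1 are controlled strongly at the level of transcription and have short-lived products, and acute myeloid leukaemia cells often depend on BCL2 and MCL1. Transcript levels say nothing of the proteins, which were not measured.

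Levels are deposited log2 values made with RMA (robust multi-array average), where a step of 1 is a doubling of signal. A change is the cortistatin A mean minus the DMSO mean on that scale, with its limma standard error. A gene was called at a Benjamini-Hochberg adjusted p under 0.05 over all genes. Of the 10 members 1 was called, PMAIP1, which was higher with cortistatin A, against 0.582% of all genes called in either direction. The 3 cortistatin A arrays lay above all 3 DMSO arrays for PMAIP1, BCL2L11 and BIK, and below them for MCL1, while 10.2% of all genes lay apart upward and 9.22% downward. The same 4 members had an unadjusted limma p under 0.05 (3 higher and 1 lower), where 6.81% of all genes were higher and 5.83% lower at that level. The median change was 0.28 over the 5 BH3-only genes, -0.0023 over the 4 pro-survival genes and 0.0065 over all genes. The BH3-only median is the BIK value, and those 5 genes ran from -0.19 to 0.44. BAD and HRK, BH3-only genes outside the members, stood at -0.03 and -0.09. BAX, the only effector among the members, stood at -0.05.

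**Figure D1:**
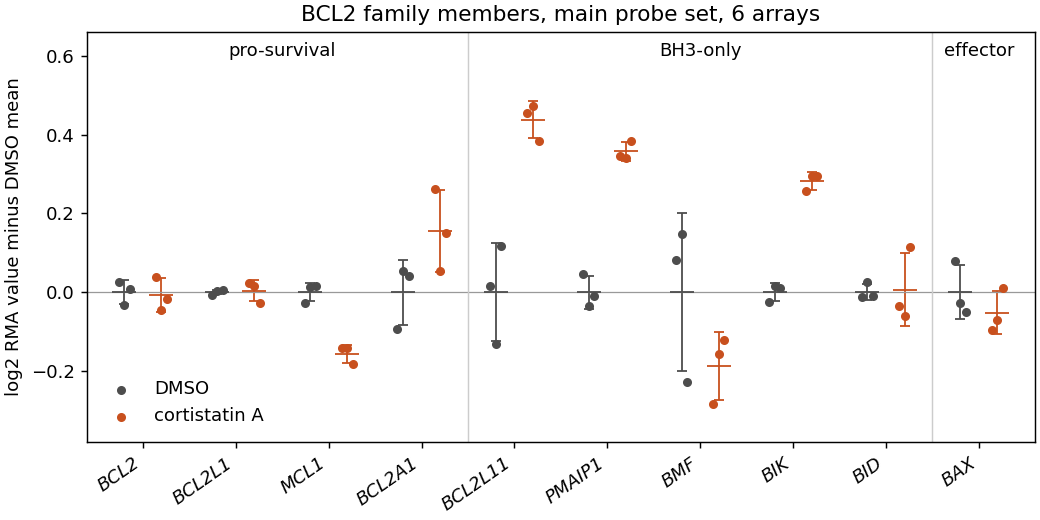
The plot of the members by array gives the main probe set of each gene (log2 RMA value minus the DMSO mean of that probe set), with points for the 3 DMSO and the 3 cortistatin A arrays and bars for the mean ± SD. The cortistatin A points of BCL2L11, PMAIP1 and BIK lie above every DMSO point, those of MCL1 lie below, and the groups of the other 6 genes overlap.

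PMAIP1 encodes NOXA, a BH3-only protein that occupies MCL1 and promotes its degradation. Its main probe set read 8.25, 8.17 and 8.20 in the DMSO arrays and 8.55, 8.55 and 8.59 in the cortistatin A arrays. The lowest cortistatin A array stood well above the highest DMSO array, and the groups had SDs of 0.042 and 0.024. PMAIP1 rose by 0.36 ± 0.049, or 1.28-fold (95% interval 1.18-fold to 1.39-fold; adjusted p = 0.0427 by limma, 3 against 3 arrays). Its other probe set, 204286_s_at, read 6.95, 7.15 and 6.91 in DMSO and 7.39, 7.31 and 7.48 in cortistatin A, a change of 0.39 ± 0.088. The call was narrow. It ended without each of the 6 arrays in turn, where the change was 0.34 to 0.38 and the limma adjusted p 0.142 to 0.180, and with the mean of the 2 probe sets (0.37, limma adjusted p = 0.0534).

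BCL2L11 encodes BIM, a BH3-only protein that binds every pro-survival member and can activate BAX directly. Its main probe set read 7.49, 7.34 and 7.59 in DMSO and 7.93, 7.95 and 7.86 in cortistatin A. The groups lay apart, and the DMSO arrays spread more (SD 0.12) than the cortistatin A arrays (SD 0.047). The change of 0.44 ± 0.074, or 1.35-fold (95% interval 1.20-fold to 1.53-fold), missed the threshold (adjusted p = 0.0764 by limma, 3 against 3 arrays). Without each array in turn BCL2L11 was not called either (limma adjusted p = 0.129 to 0.256). With the mean of all its probe sets the change was 0.35 and BCL2L11 was called (limma adjusted p = 0.0381). It was called as well with dim genes left out (limma adjusted p = 0.0264). In that last fit genes whose mean does not exceed 3.75, the median of all values, are set aside, and such genes or probe sets are called dim here.

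The changes of the 7 probe sets of BCL2L11 ranged from -0.09 to 0.67. In 4 of them the cortistatin A arrays lay above all DMSO arrays, as in 7.88% of all probe sets. Probe set 1558143_a_at read 6.16, 6.23 and 6.05 in DMSO and 6.81, 6.77 and 6.73 in cortistatin A. Its change of 0.63 ± 0.071 had a limma adjusted p of 0.0532 when all probe sets were tested as such. Probe set 222343_at read 4.21, 4.21 and 4.28 in DMSO and 4.80, 4.89 and 5.02 in cortistatin A, a change of 0.67 ± 0.076 (limma adjusted p = 0.0539). For the third, 1553096_s_at, the change was 0.27. Probe set 1553088_a_at read 5.65, 5.68 and 5.52 in DMSO and 5.62, 5.42 and 5.53 in cortistatin A, so that its groups overlapped around a change of -0.09. Set against the main probe set within each array, its change was smaller by 0.53 (exact permutation test, two-sided p = 0.1). No smaller p was possible for 3 against 3 arrays. The change of 222343_at was larger than the main one by 0.23, with the same exact permutation p of 0.1. Both p-values were 0.63 after adjustment over the 21 pairs of a main and another probe set compared in this way among the members. Which transcript forms each probe set reads was not analysed here.

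**Figure D2:**
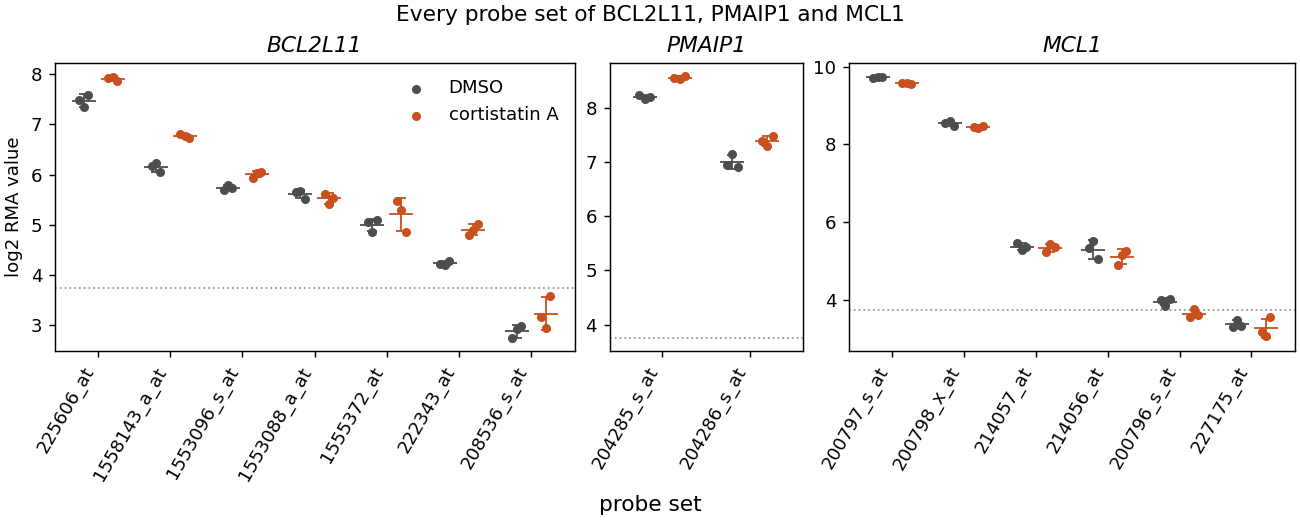
The plot of single probe sets gives the log2 RMA value on each of the 6 arrays for BCL2L11 (7 probe sets), PMAIP1 (2) and MCL1 (6), with bars for the mean ± SD of 3 arrays and a dotted line at 3.75, the median of all values. BCL2L11 moves most in 1558143_a_at and 222343_at and not upward in 1553088_a_at, both PMAIP1 probe sets separate the groups, and the MCL1 probe sets lie at or slightly below their DMSO levels.

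The 250 bases before the start of BCL2L11 and PMAIP1 are given because these are the members with non-overlapping groups for which the RefSeq promoter table (GRCh38.p14) held an entry. Of the 10 members 8 matched that table. The BCL2L11 window is chr2:111120664-111120913 and the PMAIP1 window chr18:59899746-59899995, both on the plus strand and both ending at the base before the annotated start. Capitals mark every match, on either strand, to the FOXO motif GTAAACA, the cyclic AMP response core TGACGT, the GC box GGGCGG, the CCAAT box CCAAT or the E-box CACGTG.
BCL2L11: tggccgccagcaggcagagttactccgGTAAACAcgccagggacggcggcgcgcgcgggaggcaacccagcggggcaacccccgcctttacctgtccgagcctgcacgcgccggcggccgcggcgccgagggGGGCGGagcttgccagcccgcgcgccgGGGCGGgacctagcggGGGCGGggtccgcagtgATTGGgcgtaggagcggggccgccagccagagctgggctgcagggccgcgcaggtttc
PMAIP1: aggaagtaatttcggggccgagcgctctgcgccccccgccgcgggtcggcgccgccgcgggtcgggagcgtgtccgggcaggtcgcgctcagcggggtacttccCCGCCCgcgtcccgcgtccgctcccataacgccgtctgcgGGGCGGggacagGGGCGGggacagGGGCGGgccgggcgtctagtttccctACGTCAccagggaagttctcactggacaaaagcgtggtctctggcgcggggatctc

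Both windows were rich in G and C, at 76.8% for BCL2L11 and 72.8% for PMAIP1. The BCL2L11 window held 1 FOXO match, 223 to 217 bases before the start, and 2.98% of the 35116 windows in the table held that motif. It also held 3 GC boxes and 1 CCAAT box on the reverse strand, which 42.6% and 32% of windows held. The PMAIP1 window held 1 cyclic AMP response core on the reverse strand, 56 to 51 bases before the start (7.10% of windows), and 4 GC boxes. The only motif of the 5 that both windows held was the GC box, and neither held the E-box, found in 6.34% of windows. GC boxes also lay before BID (up to 4 in a window), BAX (1) and BMF (1), whose groups overlapped in the main probe set. No matches of different motifs overlapped in the printed windows. These are matches of letters and not measured binding.

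BIK encodes a BH3-only protein of the endoplasmic reticulum. Its single probe set read 9.00, 9.04 and 9.04 in DMSO and 9.28, 9.32 and 9.32 in cortistatin A. The groups lay apart with SDs of 0.023 and 0.022. The change of 0.28 ± 0.046, or 1.22-fold (95% interval 1.13-fold to 1.31-fold), missed the threshold (adjusted p = 0.0720 by limma, 3 against 3 arrays). BIK was called with dim genes left out (limma adjusted p = 0.0174). It was not called without each array in turn (limma adjusted p = 0.192 to 0.25).

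BMF, a BH3-only protein tied to the cytoskeleton, read 5.69, 5.75 and 5.38 in DMSO and 5.32, 5.45 and 5.48 in cortistatin A. The third DMSO array lay among the cortistatin A arrays. The change was -0.19 ± 0.11 (limma adjusted p = 0.536), and it was -0.30 without that array and -0.11 without DMSO replicate 2. BID links death receptors to the mitochondrion once a caspase has cut it. Its main probe set read 9.30, 9.33 and 9.30 in DMSO and 9.27, 9.25 and 9.42 in cortistatin A. The cortistatin A arrays lay on both sides of the DMSO arrays, and the difference was 0.0064 with a 95% interval of -0.14 to 0.15. A second BID probe set, 204493_at, was at 0.09 with non-overlapping groups, and the third was at 0.0011.

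MCL1 encodes a short-lived pro-survival protein and is the main target of NOXA. Its main probe set read 9.70, 9.74 and 9.74 in DMSO and 9.59, 9.59 and 9.55 in cortistatin A. All cortistatin A arrays were lower, by a small step, with an SD of 0.023 in each group. The change was -0.16 ± 0.046, a level 0.831 to 0.969 times that of DMSO by the 95% interval, and was not called (adjusted p = 0.249 by limma, 3 against 3 arrays). All 6 MCL1 probe sets had a change below 0, from -0.31 to -0.03. In 3 of them the cortistatin A arrays lay below all DMSO arrays, as in 8.59% of all probe sets. The second brightest, 200798_x_at, read 8.54, 8.60 and 8.47 in DMSO and 8.46, 8.42 and 8.47 in cortistatin A, with the gap between the groups close to 0. Without the probe set types _x_at and _s_at, which can bind related transcripts, the brightest left for MCL1 was at -0.03 (limma adjusted p = 0.933). With trend and robust variances the fall of the main probe set was called (limma adjusted p = 0.0120).

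BCL2, the founding pro-survival member, read 9.40, 9.34 and 9.38 in DMSO and 9.41, 9.33 and 9.36 in cortistatin A. The groups overlapped fully, and the difference of -0.0082 had a 95% interval of -0.13 to 0.11, which reaches 1.09-fold at most. Of its 3 other probe sets 1 had non-overlapping groups, 207004_at, which read 4.99, 5.01 and 5.09 in DMSO and 5.19, 5.27 and 5.22 in cortistatin A. Its change of 0.20 ± 0.062 was not called (limma adjusted p = 0.373), and 7.88% of all probe sets lay apart upward. Set against the main probe set within each array, its change was larger by 0.20 (two-sided exact permutation p = 0.1, the smallest possible, and 0.63 over the 21 pairs).

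BCL2L1 encodes BCL-XL. Its main probe set read 6.23, 6.24 and 6.24 in DMSO and 6.26, 6.26 and 6.21 in cortistatin A. The arrays were nearly level, with a difference of 0.0035 and a 95% interval of -0.11 to 0.11. Its 3 other probe sets lay between -0.18 and 0.02 with overlapping groups. BCL2A1, a pro-survival gene induced by inflammatory signals in myeloid cells, read only 1.76, 1.91 and 1.90 in DMSO and 2.12, 1.91 and 2.01 in cortistatin A. It was the only member with a dim main probe set, so small changes are compressed there, and its change of 0.16 ± 0.074 was not called (limma adjusted p = 0.453). It was 0.10 without cortistatin A replicate 1.

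BAX forms pores in the outer membrane of the mitochondrion together with BAK1. Its main probe set read 8.05, 7.94 and 7.92 in DMSO and 7.87, 7.90 and 7.98 in cortistatin A. The groups overlapped, and the difference was -0.05 ± 0.059 (limma adjusted p = 0.777), with an interval that reaches 1.14-fold at most. It was -0.013 without DMSO replicate 1, -0.031 without cortistatin A replicate 1 and -0.083 without cortistatin A replicate 3. The other BAX probe set stood at -0.04. PMAIP1 and BAX are both known p53 target genes, and the difference between their changes was not tested.

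When all probe sets were tested as such, none of the 31 of the members was called by limma, against 0.0513% of all probe sets, and 10 of them had an unadjusted limma p under 0.05. Of these 8 were higher and 2 lower, where 4.94% of all probe sets were higher and 5.37% lower at that level. The cortistatin A arrays lay above all DMSO arrays in 9 of the 31 probe sets and below them in 3, whereas this held for 7.88% and 8.59% of all probe sets. Of the 9 higher probe sets, 4 belonged to BCL2L11, 2 to PMAIP1 and 1 each to BIK, BCL2 and BID, and all 3 lower ones to MCL1. Probe sets of a gene share its transcripts and are not independent.

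**Figure D3:**
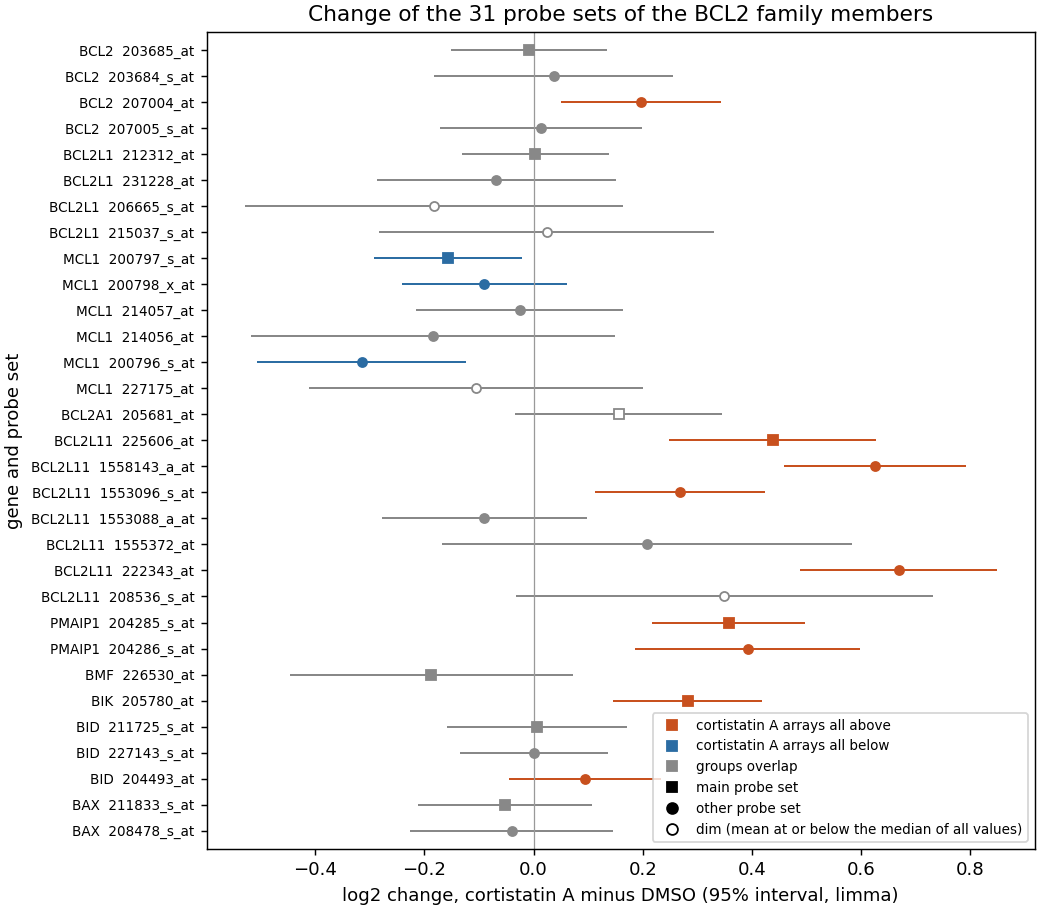
The plot of the 31 probe sets gives the log2 change (cortistatin A minus DMSO) of each with its 95% limma interval. Squares are main probe sets, circles the others, open symbols dim ones, and colour shows whether the groups of 3 arrays lie apart. The intervals of BCL2L11, PMAIP1 and BIK probe sets with separated groups lie above 0, and the MCL1 changes run from -0.31 to -0.03.

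The nearest relatives outside the 10 genes gave no call. Of 12 other BCL2 family genes measured 0 were called by limma (median change -0.04), against 0.582% of all genes. At an unadjusted limma p under 0.05, 1 was higher and 2 were lower, against 6.81% and 5.83% of all genes. BCL2L2 (BCL-W), a pro-survival gene, stood at -0.32 ± 0.077 and BCL2L12 at -0.19 ± 0.049, with limma adjusted p = 0.184 and 0.194. BCL2L10, a further pro-survival relative, stood at 0.27 ± 0.066 (limma adjusted p = 0.186). The cortistatin A arrays lay apart from DMSO for all 3 of these, as for 10.2% of all genes upward and 9.22% downward. The effector BAK1 was at 0.0055 ± 0.082, the BH3-only gene BAD at -0.03 ± 0.081 and BCL2L13 at -0.07. BCL2L13 was at -0.039 without cortistatin A replicate 1 and -0.11 without cortistatin A replicate 3, and BAD was at -0.10 without DMSO replicate 1 and 0.040 without DMSO replicate 3. BBC3 (PUMA) was not measured, since no probe set was annotated to it alone.

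Of 14 measured genes of the mitochondrial apoptosis machinery 0 were called by limma (median change -0.05). An unadjusted limma p under 0.05 was held by 3 of them, all lower. Over all genes 5.83% were lower and 6.81% higher at that level. The 3 lower genes were XIAP, the caspase inhibitor, at -0.28 ± 0.061 (limma adjusted p = 0.144), the initiator caspase gene CASP9 at -0.20, and APAF1, the scaffold of the apoptosome, at -0.12. CASP2 stood at -0.12 with non-overlapping groups. With the mean of all probe sets XIAP was at -0.087, APAF1 at 0.022 and CASP2 at -0.22, and without _x_at and _s_at types XIAP was at -0.16. Among 8 genes whose products control the turnover of MCL1 and BIM proteins 0 were called (1 higher and 1 lower at an unadjusted limma p under 0.05). GSK3B, a kinase that marks MCL1 for degradation, was at -0.34 ± 0.062 (limma adjusted p = 0.0941), and TRIM17, a ligase of MCL1, was dim at 0.29. The ligase subunit BTRC stood at -0.13 and the deubiquitinase USP9X at -0.07. With the mean of all probe sets GSK3B was at -0.11 and BTRC at -0.024, and BTRC was at -0.077 without cortistatin A replicate 3. Without _x_at and _s_at types USP9X was at -0.044.

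Of 16 transcription factors known to control BCL2 family genes, 1 was called, against 0.582% of all genes. MYC, which can raise BIM and lower BCL2 transcription, rose by 0.39 ± 0.049 (limma adjusted p = 0.0332), and its call also ended without each array in turn (limma adjusted p = 0.122 to 0.159). The others with the smallest p were STAT3 (-0.20), MEIS1 (0.18), MYB (0.15) and NFKB1 (-0.19), none of which passed. With the mean of all probe sets STAT3 was at 0.0077 and MEIS1 at 0.10, and NFKB1 was at -0.13 without DMSO replicate 1. FOXO3, a factor that binds the FOXO motif, was at 0.03, its relative FOXO4 at -0.07 and its relative FOXO1 at -0.30 ± 0.17. The groups of these FOXO genes overlapped, and none of them was called by limma.

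**Figure D4:**
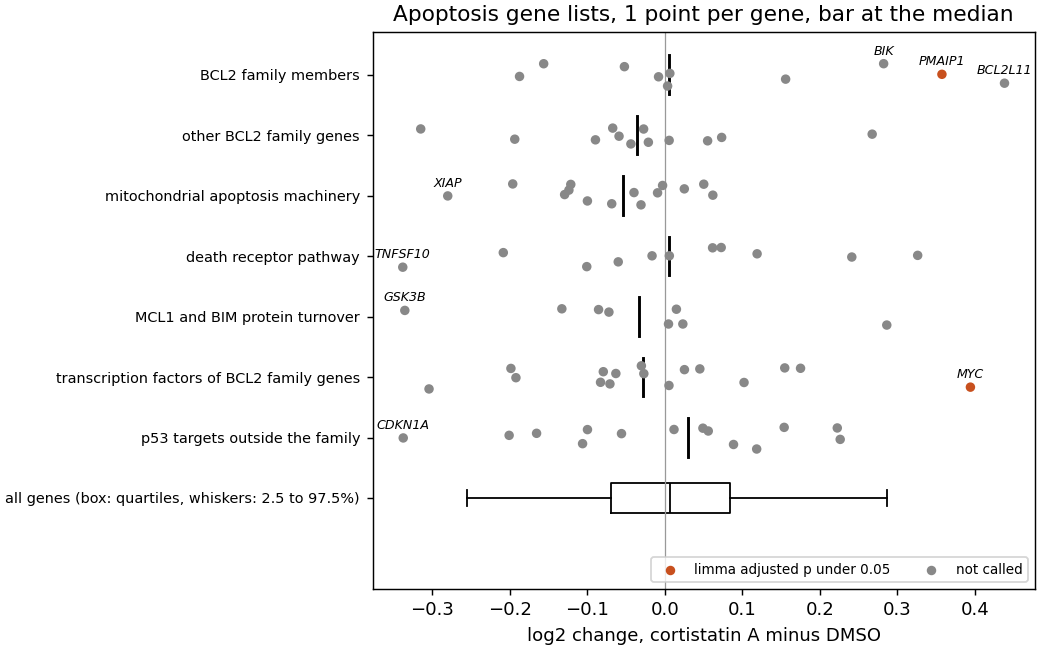
The plot of apoptosis gene lists gives the log2 change (cortistatin A minus DMSO) with 1 point per gene, a black bar at each list's median and a box for all 19775 genes; genes with an unadjusted p under 0.003 are named. PMAIP1 and MYC are the 2 genes called, and the medians of the lists lie between -0.05 and 0.03.

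The arrays were alike in their medians (3.74 to 3.77), and pairs correlated across genes at 0.9969 to 0.9974 between the groups and 0.9975 to 0.9979 within them. Of 17 myeloid and leukaemia markers 14 were measured, 12 of them above the median of all values, with lysozyme (LYZ) at 12.4, and the dim ones were CD14 and ANPEP. Their summed level was 91.83 to 93.10 on the DMSO arrays and 93.22 to 94.95 on the cortistatin A arrays, with KIT and CEBPA called higher. At an unadjusted limma p under 0.05, 4 of these markers were higher and 1 was lower, against 6.81% and 5.83% of all genes. The lower one was FLT3, at -0.20 with non-overlapping groups and not called. The part of the shift in summed level in the members' changes was not tested. Markers of T, B, erythroid and natural killer cells gave no call and no unadjusted limma p under 0.05, and their means reached 5.12 at most. Of 7 epithelial and stromal markers 3 were above the median of all values, with KRT18 at 7.11, and 0 were called (1 lower at an unadjusted limma p under 0.05). The 3' minus 5' log2 signal of the 3 human messenger RNA controls, which rises as labelled RNA gets shorter, ran from 2.76 to 2.78 on the DMSO arrays and from 2.81 to 2.92 on the cortistatin A arrays. With this index as a covariate, chosen after its values were seen, PMAIP1 was at 0.31 ± 0.082, BCL2L11 at 0.50 ± 0.13, BIK at 0.28 ± 0.080 and MCL1 at -0.12 ± 0.077. None of the 4 was then called (limma adjusted p = 0.412 to 0.688), and the index did not overlap between the groups. In the same fit BAX was at -0.14, BCL2L10 at 0.11, BCL2L13 at -0.16, TRIM17 at 0.47, NFKB1 at -0.30 and CASP2 at -0.063. With the index of all controls BCL2A1 was at 0.089, BCL2L13 at -0.041, BAD at -0.095 and NFKB1 at -0.12.

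**Figure D5:**
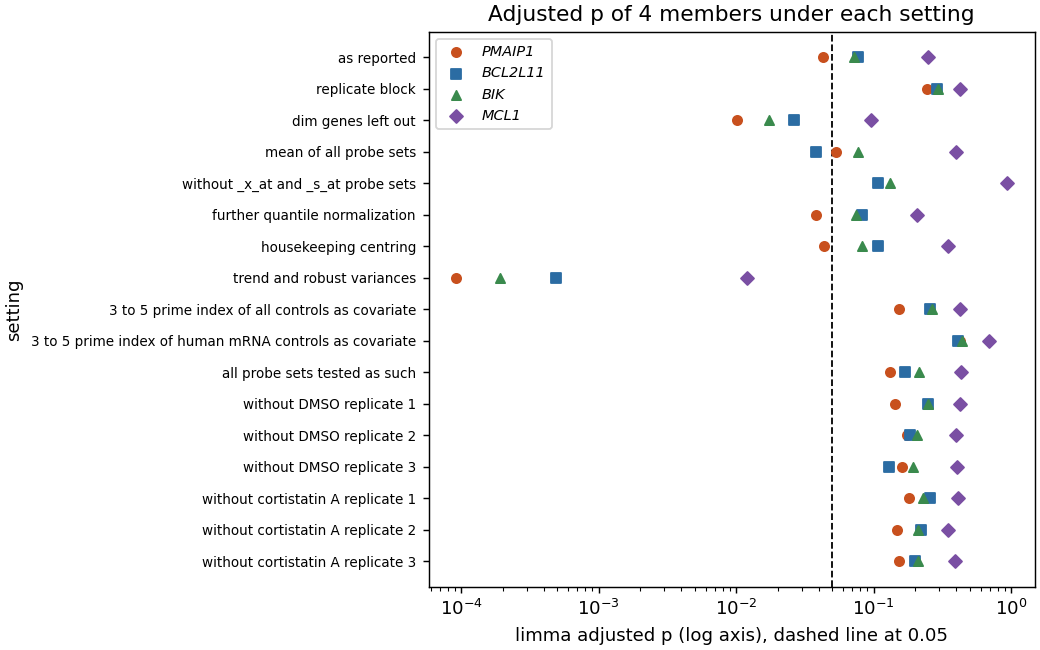
The plot of adjusted p by setting gives the limma adjusted p (log axis) of PMAIP1, BCL2L11, BIK and MCL1 as reported and under 16 other settings, with a dashed line at 0.05. PMAIP1 lies left of the line as reported and in 4 other settings, BCL2L11 in 3, BIK in 2 and MCL1 in 1, and no point lies left of it when any array is left out.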

How the data were processed

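Total RNA of the 6 samples was hybridised to Affymetrix Human U133 Plus 2.0 arrays. The deposited log2 values, 1 per probe set and array, were made with RMA and the affy package, per the submitters' processing notes, with no version. The table states no scale, and its values (0.807 to 13.84) were taken as log2. RMA in its usual form removes shifts common to all transcripts and compresses changes near background. No scanner files were used, depth does not apply to arrays, and their number limits the precision.

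Of the probe sets 41091 name 1 gene in the platform annotation and 1801 name several. Symbols were updated through RefSeq gene identifiers for 41037. No build is named for the array, so coordinates are those of the RefSeq windows only. Each gene's brightest probe set entered limma 3.58.1 in R 4.3.3 (lmFit, eBayes, group only, 4 residual and 2.68 prior degrees of freedom, Benjamini-Hochberg over 19775 genes). Other probe sets were tested in a limma fit over all probe sets. The gene step was tested on simulated data.

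The members, lists, tests and alternatives were chosen with earlier results of these data known. All members were named, and of each pathway list the genes called and up to 4 more with the smallest p. BAK1, BAD and BCL2L2 were always named, as BBC3 would have been if measured. HRK, FOXO1, FOXO3, FOXO4 and the probe sets described singly were chosen after their values were seen. The alternatives are those of the closing section. No pairing by replicate number was seen. Deviations from the group means correlated at -0.055, 0.0095 and 0.016 for same-numbered arrays and at -0.042 to 0.035 for the others. A pairing too weak for these correlations to show is not excluded.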

Additional observations from a re-analysis of the deposited data

How the results depend on the processing

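PMAIP1 was above 0 with an unadjusted limma p under 0.05 in all 16 of its alternatives and lost its call in 11 of them. BCL2L11 and BIK were likewise above 0 with an unadjusted p under 0.05 in all 17 of theirs and gained a call in 4 and 3, and MCL1 was below 0 in all 17 and gained a call in 1. PMAIP1 and MYC have only _s_at probe sets and were not measured without those types. As reported, limma called 1 member (0 lower), 115 genes (88 higher, 27 lower), 1 gene of the other pathway lists and 0 of the members' probe sets. The pathway lists are those of the family, of apoptosis, of protein turnover, of transcription factors and of p53 targets, and the counts of pathway genes leave out the marker and housekeeping lists, which hold KIT and CEBPA. The cause of the following shifts was not tested, beyond what each setting itself changes.

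With the replicate block limma called 0 members (0 higher), 0 genes in all (0 higher, 0 lower) and 0 pathway genes, with 2243 genes at an unadjusted p under 0.05, and PMAIP1 had an adjusted p of 0.244. Whether the replicate numbers pair the arrays is not known. Leaving out each array in turn gave 0 members (0 higher), 0 to 4 genes in all (0 to 3 higher, 0 to 1 lower) and 0 pathway genes, with 1952 to 2342 genes at an unadjusted p under 0.05. A covariate for the 3' minus 5' signal, of all controls or of the human controls, gave 0 members (0 higher), 0 genes (0 higher, 0 lower) and 0 pathway genes, with 1960 and 1934 genes at an unadjusted p under 0.05. With dim genes left out, fewer genes were tested, 12622 with 9 of the members. There were then 3 members (3 higher), 321 genes (212 higher, 109 lower), 3 pathway genes and 5 of the members' probe sets called. With trend and robust variances there were 4 members (3 higher, 1 lower), 762 genes (455 higher, 307 lower), 12 pathway genes and 7 probe sets. Averaging every probe set of a gene gave 76 genes (58 higher), and the single member called there was BCL2L11, not PMAIP1. Without _x_at and _s_at types 17098 genes and 8 of the members were tested. This gave 0 members (0 higher), 54 genes (43 higher, 11 lower) and 0 pathway genes. With all probe sets tested as such there were 0 members (0 higher), 15 genes (13 higher, 2 lower) and 0 pathway genes. At an adjusted p under 0.1 there were 3 members (3 higher), 260 genes (181 higher, 79 lower), 3 pathway genes and 2 probe sets. A further quantile normalization gave 2 of the members' probe sets and housekeeping centring 1. For these other settings the share of all probe sets called was not counted. The counts of the members' probe sets there have no background and are not read as a result about the members.

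Changes that turned their sign all belonged to genes not called as reported. With the mean of all probe sets these were BCL2 (0.060), BCL2L1 (-0.056), APAF1 (0.022) and STAT3 (0.0077), and without _x_at and _s_at types BTRC (0.097). BID turned with a further quantile normalization (-0.011). With the index of all controls BCL2L1 (-0.0080), BAX (0.0049) and BAK1 (-0.028) turned, and with that of the human controls BID (-0.13), BAK1 (-0.16), BAD (0.052) and BTRC (0.0095). Without single arrays the range crossed 0 for BCL2 (-0.031 to 0.011), BCL2L1 (-0.0062 to 0.019), BID (-0.047 to 0.040), BAK1 (-0.055 to 0.073) and BAD (-0.10 to 0.040).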

Other observations

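The death receptor pathway, which reaches the mitochondrion through BID, gave 0 calls by limma among 11 measured genes (median change 0.0058). At an unadjusted limma p under 0.05, 2 were higher and 1 was lower, against 6.81% and 5.83% of all genes. The receptor gene TNFRSF10A stood at 0.33 ± 0.074 and its ligand TNFSF10 (TRAIL) at -0.34 ± 0.074, with limma adjusted p = 0.165 and 0.149 and non-overlapping groups for both. CFLAR, the inhibitor of caspase activation at the receptor, was at 0.24 ± 0.062 (limma adjusted p = 0.194), and TNFRSF1A was at -0.10. With the mean of all probe sets TNFRSF10A was at 0.17 and CFLAR at 0.12.

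Of 14 measured p53 target genes outside the family 0 were called by limma (median change 0.03). With an unadjusted limma p under 0.05, 2 were higher and 1 was lower, against 6.81% and 5.83% of all genes. CDKN1A, the p53-induced inhibitor of cyclin-dependent kinases, was lower in all cortistatin A arrays at -0.34 ± 0.054 (limma adjusted p = 0.0679). PMAIP1, a p53 target of the family, rose. The difference between these changes and any part of p53 in them were not tested. TIGAR and AEN, which are also p53 targets, stood at 0.22 and 0.23 with non-overlapping groups, and SESN1 at -0.20 with overlapping groups. With the index of the human messenger RNA controls as a covariate TIGAR was at 0.073, AEN at 0.070 and SESN1 at -0.36, and without DMSO replicate 3 SESN1 was at -0.32.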
